A study of Mus musculus with 8 samples.

Results

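The genes described here are 10 negative feedback genes of the ERK pathway: the MAP kinase phosphatases Dusp1, Dusp2, Dusp4, Dusp5 and Dusp6, the Sprouty genes Spry1, Spry2 and Spry4, and the Sprouty-related genes Spred1 and Spred2. They were taken by symbol from the deposited expression table of mouse heart, where they are 10 of 54532 listed genes; the rule goes by symbol alone. RNA came from hearts of C57BL/6 mice in 4 groups of 2 libraries each: Piezo1-Cko mice after TAC, Piezo1-Cko mice after sham surgery, wild-type mice after TAC and wild-type mice after sham surgery. TAC stands for transverse aortic constriction, which narrows the aorta and loads the left ventricle with pressure, and sham surgery leaves the aorta open. Piezo1 encodes a cation channel opened by mechanical force, and Cko is the usual short form of conditional knockout. The labels name neither the cells that lost the channel nor the deleted exons, and give no age, sex or time after surgery. Nor do they say whether libraries of 1 group came from separate hearts, so the p-values here measure only the spread between these libraries.

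ERK is the last kinase of a relay that runs from growth factor receptors through the small GTPase RAS and the kinases RAF and MEK, and in the heart it is activated by stretch, pressure and growth factors. Active ERK switches on genes that shut it off again, so transcripts of these genes are widely read as a trace of recent ERK signalling, although other pathways induce several of them too. Dual-specificity phosphatases remove the activating phosphates from MAP kinases. Sprouty and SPRED proteins act further up, between the receptor and RAF, and SPRED proteins bring neurofibromin, the protein that turns RAS off, to the membrane.

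Expression was deposited as FPKM, fragments per kilobase of gene length and per unit of sequencing depth, from which whole reads per gene could be recovered. The libraries held 15574769 to 17313084 reads in genes, and the 10 genes were covered by 3 to 2283 reads each. The heart label was checked against Myh6, the main myosin heavy chain gene of adult mouse cardiomyocytes, which had 1145 to 2618 FPKM in the 8 libraries. Piezo1 had 5.24 and 3.89 FPKM in Piezo1-Cko TAC, 3.83 and 3.23 in Piezo1-Cko sham, 5.38 and 5.83 in wild-type TAC and 2.35 and 3.09 in wild-type sham libraries; a total over the whole gene does not check the removal of some exons or of the gene in some cells. Both libraries that stand apart were wild type. The wild-type sham replicate 1 held the atrial gene Myl7 at 394 FPKM, against at most 0.443 in the other libraries, and the fat cell gene Cfd at 18.8 FPKM. The wild-type TAC replicate 1 held the plasma cell gene Jchain at 22.5 FPKM, against at most 1.34 elsewhere, and the highest summed fibroblast markers, 518 FPKM. Results that rest on these libraries are given without them below.

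The 5' ends of the genes differ in the regulatory motifs they carry. RefSeq promoters, 250 bases before to 50 bases after the gene start in the build GRCm38.p6, were found for 8 of the 10 genes; Dusp4 and Spry4 are named only. Dusp1, Dusp5 and Spred1 are printed because Dusp1 had the highest level of the 10 genes, Dusp5 held a motif found in no other of the 8 windows, and Spred1 is the gene that passed a test in more than 1 comparison below. Capitals mark motif matches, and each sequence runs 5' to 3' on the strand of its gene: Dusp1 at chr17:26508423-26508722 on the minus strand, Dusp5 at chr19:53528895-53529194 and Spred1 at chr2:117120821-117121120 on the plus strand.
Dusp1: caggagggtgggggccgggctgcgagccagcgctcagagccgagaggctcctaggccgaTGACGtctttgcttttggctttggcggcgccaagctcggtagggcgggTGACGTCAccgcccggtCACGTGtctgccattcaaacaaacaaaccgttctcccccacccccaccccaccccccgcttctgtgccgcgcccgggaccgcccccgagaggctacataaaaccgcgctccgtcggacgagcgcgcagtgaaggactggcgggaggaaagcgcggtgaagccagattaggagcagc
Dusp5: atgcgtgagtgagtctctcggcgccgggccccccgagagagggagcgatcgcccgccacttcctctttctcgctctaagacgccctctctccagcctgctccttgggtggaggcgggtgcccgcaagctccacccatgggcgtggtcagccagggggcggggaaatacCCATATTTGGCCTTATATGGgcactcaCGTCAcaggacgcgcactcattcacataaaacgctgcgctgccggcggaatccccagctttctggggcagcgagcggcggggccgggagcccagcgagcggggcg
Spred1: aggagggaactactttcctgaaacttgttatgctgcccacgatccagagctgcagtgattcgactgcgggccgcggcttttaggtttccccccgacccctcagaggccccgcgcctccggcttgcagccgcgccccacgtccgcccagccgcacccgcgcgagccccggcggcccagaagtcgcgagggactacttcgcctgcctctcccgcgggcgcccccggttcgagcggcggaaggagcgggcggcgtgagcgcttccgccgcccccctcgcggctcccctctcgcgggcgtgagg
The letters searched, on both strands, were TGACGTCA (the cAMP response element, CRE), TGACG (its half-site, which also lies inside the full CRE), TGANTCA (AP-1), CACGTG (E-box), ACCGGAAG and its core CCGGAA (ETS), the core promoter letters TATAAA, and the CArG box, the element bound by serum response factor, given by name.
With positions counted from the gene start at 1 and negative before it, Dusp1 carried a full CRE at -143, a further half-site at -191 and an E-box at -126; it was the only one of the 8 windows with the full CRE, which 1.79% of 32851 mouse promoters hold. Dusp5 carried a pair of adjoining CArG boxes, CCATATTTGG and CCTTATATGG, starting at -82 and -72, and a CRE half-site at -55; 1.63% of all promoters hold a CArG box. The half-site stood in 4 of the 8 windows (Dusp1, Dusp2, Dusp5 and Spred2), against 20.8% of all promoters, and the E-box in 2 (Dusp1 and Dusp2), against 7.15%. The ETS core stood in 1 window, that of Spry2, and in 14.9% of all promoters. AP-1, the longer ETS motif and the core promoter letters matched none of the 8 windows; of all promoters, 7.81% held AP-1, 2.3% the longer ETS motif and 13.6% the core promoter letters. Spred1, Spry1 and Dusp6 had no match to any motif searched in these 300 bases. The bases G and C made up 57.0 to 72.3% of the 8 windows, against a median of 52.7% over all promoters. The shares of all promoters were not matched for this content.

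The mean levels of the 10 genes ran from 0.432 to 32.3 FPKM. FPKM is a level per length of gene, so the genes can be ordered by it. Dusp1, a nuclear phosphatase that acts on p38 and JNK as well as ERK, was the highest, with a mean of 32.3 FPKM over the 8 libraries. Spry1 followed at 14.9 FPKM and Dusp6, the cytoplasmic phosphatase most selective for ERK, at 10.8 FPKM. Spry2, Spred2 and Spred1 lay close together at 8.42, 8.20 and 7.81 FPKM. Spry4 averaged 4.79 FPKM and Dusp5, a nuclear phosphatase selective for ERK, 2.80 FPKM. Dusp4, a nuclear phosphatase related to Dusp1, and Dusp2, a phosphatase best known from immune cells, stood at the bottom with 0.722 and 0.432 FPKM, on 9 to 79 and 3 to 30 reads a library. Neighbours in this order had overlapping ranges over the 8 libraries, except Dusp5, at 1.64 FPKM or more, and Dusp4, at 1.63 FPKM or less. All 10 genes passed the filter of at least 0.5 FPKM and 10 reads in at least 2 libraries.

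**Figure D1:**
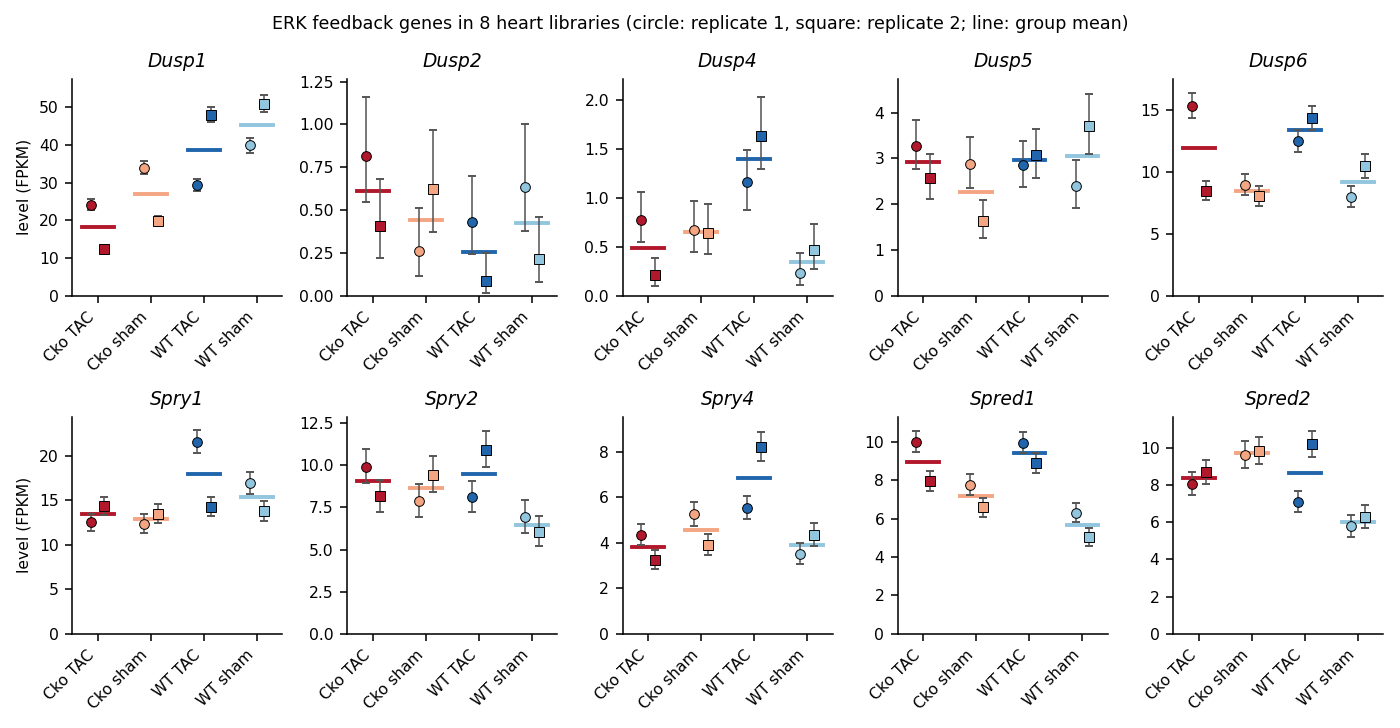
Level of each of the 10 genes in FPKM (vertical axis, from 0) in the 8 heart libraries, by group: Piezo1-Cko TAC, Piezo1-Cko sham, wild-type TAC and wild-type sham. Points are libraries with 95% Poisson intervals for counting error, and lines are group means; Dusp4 and Spred1 are higher in both wild-type TAC libraries than in both wild-type sham libraries, and Dusp1 is lowest in a Piezo1-Cko TAC library (12.3 FPKM).

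The first question is how these genes differed after pressure overload in wild-type hearts. Dusp4 and Spred1 rose, and none of the 10 genes fell past the threshold. Dusp4 had 1.16 and 1.63 FPKM in wild-type TAC libraries, against 0.231 and 0.463 FPKM in wild-type sham libraries. Spred1, whose protein carries neurofibromin to the membrane, had 9.94 and 8.89 FPKM in wild-type TAC, against 6.31 and 5.03 FPKM in wild-type sham libraries. For both genes, both TAC libraries lay above both sham libraries. On the log2(FPKM + 0.5) scale, which understates changes of low genes, Dusp4 rose by 1.16 (SE 0.304, 2.24-fold; limma, adjusted p = 0.0457) and Spred1 by 0.69 (SE 0.171, 1.61-fold; limma, adjusted p = 0.0408). The calls sit just inside the threshold of 0.05. Without either wild-type sham library, either wild-type TAC library or either Piezo1-Cko sham library, neither gene passed, with adjusted p of 0.0823 to 0.143 for Dusp4 and 0.0568 to 0.167 for Spred1. The log2 difference lay between 0.97 and 1.36 for Dusp4 and between 0.54 and 0.84 for Spred1 in those fits. Without both libraries that stand apart it was 1.15 for Dusp4 (adjusted p = 0.188) and 0.76 for Spred1 (adjusted p = 0.143).

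The 3 Sprouty genes and Spred2 were higher on average in wild-type TAC libraries without passing the adjusted test. Spry4, an inhibitor of receptor-to-RAS signalling that is induced by ERK, had 5.52 and 8.23 FPKM in wild-type TAC and 3.5 and 4.35 FPKM in wild-type sham libraries, a log2 difference of 0.72 (SE 0.236; limma, adjusted p = 0.0806). Spry2 had 8.11 and 10.9 FPKM in wild-type TAC and 6.91 and 6.04 FPKM in wild-type sham libraries (0.51, SE 0.183; limma, adjusted p = 0.0991). The groups did not overlap for either gene. Spred2 had 7.10 and 10.2 FPKM in wild-type TAC and 5.79 and 6.27 FPKM in wild-type sham libraries (0.47, SE 0.172; limma, adjusted p = 0.104). Dusp6 had 12.5 and 14.4 FPKM in wild-type TAC and 8.0 and 10.5 FPKM in wild-type sham libraries (0.53, SE 0.264; limma, adjusted p = 0.205). Without the wild-type TAC replicate 2 the log2 differences were 0.45 for Spry4, 0.31 for Spry2 and 0.22 for Spred2. Spred2 and Dusp6 were likewise higher in each wild-type TAC library than in each wild-type sham library. Spry1 had 21.6 and 14.3 FPKM in wild-type TAC and 16.9 and 13.8 FPKM in wild-type sham libraries. Its highest value was in the wild-type TAC replicate 1, which also had the highest summed fibroblast markers (518 FPKM). The log2 difference of Spry1 was 0.19 with that library, where it did not pass, and -0.10 without it. The part of fibroblasts in the Spry1 values was not tested.

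The other phosphatases showed no difference past the threshold in wild type. Dusp1 had 29.3 and 48.0 FPKM in wild-type TAC and 39.9 and 50.9 FPKM in wild-type sham libraries (log2 difference -0.26, SE 0.390; limma, adjusted p = 0.669). The spread between the TAC replicates, 1.63-fold, was wider than the difference between the groups. Dusp5 had 2.85 and 3.07 FPKM in wild-type TAC and 2.39 and 3.70 FPKM in wild-type sham libraries (-0.01, 95% interval -0.63 to 0.60). Dusp2 had 0.429 and 0.0849 FPKM in wild-type TAC and 0.632 and 0.211 FPKM in wild-type sham libraries (-0.28, SE 0.360; limma, adjusted p = 0.612). At 3 to 18 reads a library, the 95% counting intervals of Dusp2 overlapped between TAC and sham libraries, with 1 exception. The TAC replicate 2 (0.0175 to 0.248 FPKM) lay below the sham replicate 1 (0.375 to 0.999 FPKM).

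Set against the whole transcriptome, the share of feedback genes called in wild type was close to that of all genes. The calls are 2 of the 10 genes, and 13.2% of 13928 tested genes passed (776 higher and 1066 lower; 1808 higher and 564 lower where libraries were scaled to total reads). These 1842 calls became 74 without the wild-type TAC replicate 1 and 1 without both libraries that stand apart, where none of the 10 genes passed. The groups did not overlap for 6 of the 10 genes, and for 62.2% of all tested genes. Of the 10 genes, 7 had a higher mean log2 level in TAC, with a median log2 difference of 0.49; of all tested genes 50.9% did, with a median of 0.01. This is a description of a list and not a test of it. Fewer cells of a type and less RNA per cell cannot be told apart in these whole-heart samples, and cell type markers moved in the same comparison. The 5 macrophage markers summed to 190 and 175 FPKM in wild-type TAC, against 128 and 147 FPKM in wild-type sham libraries. The 5 fibroblast markers summed to 518 and 290 FPKM, against 238 and 143 FPKM. All 5 fibroblast markers had a higher mean log2 level in TAC, and 2 passed. The collagen gene Col1a1 had 148 and 52.2 FPKM in wild-type TAC, against 29.0 and 15.1 FPKM in wild-type sham libraries. Dcn, another of the 5, had 145 and 103 FPKM, against 165 and 89.4 FPKM. The 5 cardiomyocyte markers summed to 3068 and 4053 FPKM in wild-type TAC, against 7149 and 8013 FPKM in wild-type sham libraries. All 5 had a lower mean log2 level in TAC, and 3 passed. Actn2, another of the 5, had 359.6 and 382.9 FPKM in wild-type TAC, against 373.7 and 422.9 FPKM in wild-type sham libraries. Ryr2 had 29.2 and 23.03 FPKM, against 27.2 and 24.96 FPKM. The TAC and sham libraries overlapped for both Actn2 and Ryr2. The part of these cell types in the values of the feedback genes was not tested.

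The same comparison in Piezo1-Cko hearts gave no call among the 10 genes and none at an unadjusted p under 0.05, where 1.49% of all tested genes passed, 132 of them higher and 76 lower (445 higher and 70 lower where libraries were scaled to total reads), and 21.8% of all genes fell under 0.05 unadjusted. The median log2 difference of the 10 genes was 0.06. Dusp4 had 0.772 and 0.211 FPKM in Piezo1-Cko TAC and 0.667 and 0.644 FPKM in Piezo1-Cko sham libraries, so the sham values lay between the TAC values. Spry4 had 4.35 and 3.24 FPKM in Piezo1-Cko TAC and 5.25 and 3.92 FPKM in Piezo1-Cko sham libraries, which overlap. Spred1 had 9.99 and 7.94 FPKM in Piezo1-Cko TAC and 7.77 and 6.59 FPKM in Piezo1-Cko sham libraries, without overlap (log2 difference 0.30, SE 0.171; limma, adjusted p = 0.354). Spred2 was the other gene whose groups did not overlap, in the opposite direction, with 8.07 and 8.68 FPKM in Piezo1-Cko TAC and 9.62 and 9.86 FPKM in Piezo1-Cko sham libraries (-0.21, SE 0.172; limma, adjusted p = 0.528). These 2 genes stand beside 56.4% of all tested genes without overlap.

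Dusp6 differed 1.81-fold between the 2 Piezo1-Cko TAC libraries. It had 15.4 and 8.50 FPKM in Piezo1-Cko TAC and 8.96 and 8.05 FPKM in Piezo1-Cko sham libraries (log2 difference 0.41, SE 0.264; limma, adjusted p = 0.410). The TAC replicate 1 held the highest Dusp6 value of all 8 libraries, and the TAC replicate 2 lay inside the range of the sham libraries. Spry2 had 9.93 and 8.15 FPKM in Piezo1-Cko TAC and 7.88 and 9.42 FPKM in Piezo1-Cko sham libraries, and Spry1 had 12.5 and 14.3 against 12.4 and 13.5 FPKM. Dusp5 had 3.27 and 2.57 FPKM in Piezo1-Cko TAC and 2.88 and 1.64 FPKM in Piezo1-Cko sham libraries. Dusp2 had 0.812 and 0.405 FPKM in Piezo1-Cko TAC and 0.261 and 0.620 FPKM in Piezo1-Cko sham libraries, on 8 to 30 reads. Dusp1 had the largest difference of the 10 genes, with 24.1 and 12.3 FPKM in Piezo1-Cko TAC and 34.0 and 19.7 FPKM in Piezo1-Cko sham libraries (-0.57, SE 0.390; limma, adjusted p = 0.440). These 5 genes overlapped between the groups.

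Averaged over both genotypes, Spred1 was the 1 gene of the 10 that rose after TAC, by 0.49 on the log2 scale (SE 0.121, 1.41-fold; limma, adjusted p = 0.0248). Each of the 4 TAC libraries, at 7.94 to 9.99 FPKM, lay above each of the 4 sham libraries, at 5.03 to 7.77 FPKM, a pattern shown by 27.7% of all tested genes. In this average 25.4% of all tested genes passed (1657 higher and 1880 lower; 3684 higher and 969 lower where libraries were scaled to total reads), so 1 of 10 is below the background share. The call was lost without the wild-type sham replicate 2 (adjusted p = 0.0644), the wild-type TAC replicate 1 (0.0703), the Piezo1-Cko sham replicate 1 (0.0572), the Piezo1-Cko sham replicate 2 (0.0894) or the Piezo1-Cko TAC replicate 1 (0.0777). Without both libraries that stand apart the log2 difference was 0.53 and the adjusted p 0.0583. All 5 macrophage markers rose in the same average, among them Cd68 by 1.25 (SE 0.169; limma, adjusted p = 0.0048), and the part of macrophages in the Spred1 value was not tested. Dusp6 followed with a log2 difference of 0.47 (SE 0.186; limma, adjusted p = 0.103). The other 8 genes differed by -0.42 (Dusp1), -0.02 (Dusp2), 0.12 (Spry1), 0.13 (Spred2), 0.16 (Dusp5), 0.24 (Spry4), 0.28 (Spry2) and 0.44 (Dusp4), with limma adjusted p of 0.141 to 0.957.

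**Figure D2:**
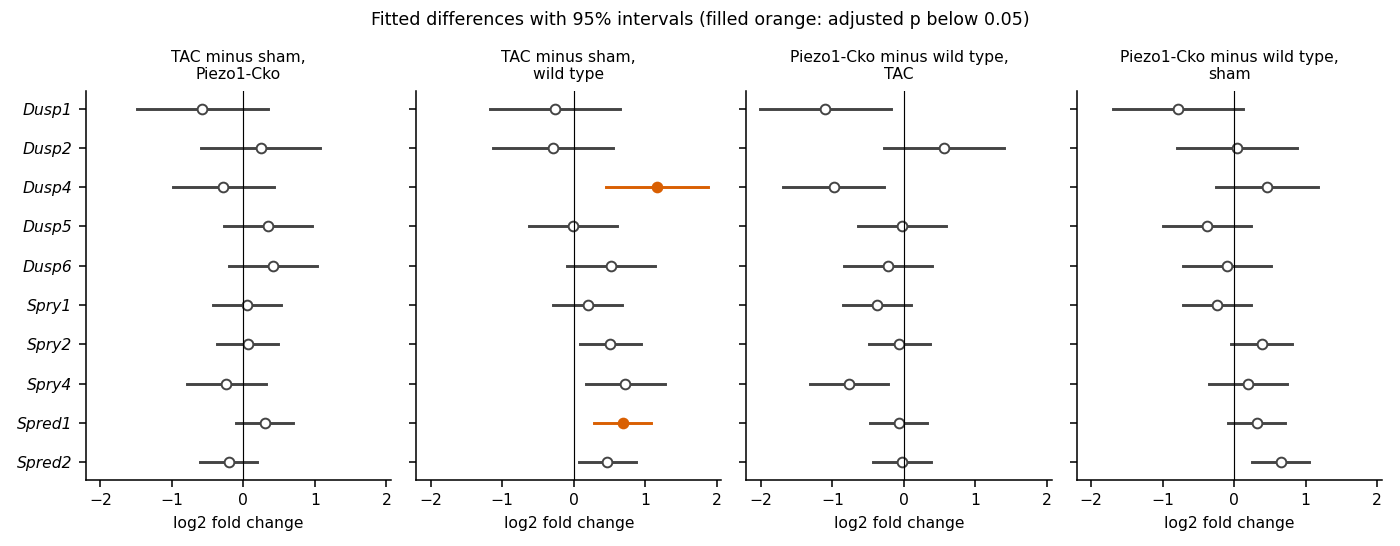
Fitted log2 differences of the 10 genes with 95% intervals (horizontal axis) for TAC minus sham in Piezo1-Cko and in wild type, and for Piezo1-Cko minus wild type under TAC and under sham; filled orange points passed an adjusted p of 0.05. Dusp4 (1.16) and Spred1 (0.69) in wild type are the filled points.

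The genotype comparison asks how hearts of Piezo1-Cko mice differed from wild type under the same surgery, and no feedback gene passed it in either. Under TAC 0% of all tested genes passed in limma, with 1269 genes at an unadjusted p under 0.05, and limma-voom on the recovered reads called none. Under sham surgery 0.0215% passed, which were 3 genes (Aplnr, Gapdh and Gm49326, named after their values were seen). Of the 10 feedback genes, 9 had a lower mean log2 level in Piezo1-Cko under TAC, with a median difference of -0.15, and 3 of these had an unadjusted p under 0.05. Of all tested genes 51.7% had a higher mean there, with a median of 0.01, and 9.11% had an unadjusted p under 0.05. Under sham surgery 4 of the 10 were lower, with a median of 0.12, and 47.5% of all tested genes were higher, with a median of -0.01. The groups did not overlap for 3 genes under TAC, beside 39.8% of all tested genes, and for 6 under sham surgery, beside 39.6%.

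Dusp4, Spry4 and Dusp1 were the 3 genes with an unadjusted p under 0.05 between genotypes under TAC. Dusp4 had 0.772 and 0.211 FPKM in Piezo1-Cko TAC and 1.16 and 1.63 FPKM in wild-type TAC libraries (log2 difference -0.98, SE 0.304; limma, adjusted p = 0.508). Spry4 had 4.35 and 3.24 FPKM in Piezo1-Cko TAC and 5.52 and 8.23 FPKM in wild-type TAC libraries (-0.77, SE 0.236; limma, adjusted p = 0.508). Both Piezo1-Cko TAC libraries lay below both wild-type TAC libraries for each gene. Under sham surgery the Dusp4 order was the other way, with 0.667 and 0.644 FPKM in Piezo1-Cko and 0.231 and 0.463 FPKM in wild type (0.46, SE 0.304; limma, adjusted p = 0.815). The test of the difference itself, the TAC response in Piezo1-Cko minus that in wild type, gave -1.44 for Dusp4 (SE 0.430), -0.96 for Spry4 (SE 0.334) and -0.68 for Spred2 (SE 0.243), each with a limma adjusted p of 0.911. It was -0.45 for Spry2, -0.39 for Spred1, -0.31 for Dusp1, -0.14 for Spry1, -0.12 for Dusp6, 0.35 for Dusp5 and 0.52 for Dusp2 (limma, adjusted p of 0.911 to 0.976). Over all genes 0.00718% passed this interaction, which was Gapdh alone, a gene with many processed copies in the mouse genome. A different response of these genes in the 2 genotypes is thus not shown by these libraries. Dusp4 and Spry4 followed each other over the 8 libraries more closely than any other pair of the 10 genes, with a Pearson r of 0.92 on the log2(FPKM + 0.5) scale over libraries that share their groups and their scaling.

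Dusp1 was lower in Piezo1-Cko than in wild-type libraries in both surgeries without passing the adjusted test. It had 24.1 and 12.3 FPKM in Piezo1-Cko TAC, against 29.3 and 48.0 FPKM in wild-type TAC libraries (log2 difference -1.10, SE 0.390; limma, adjusted p = 0.526). It had 34.0 and 19.7 FPKM in Piezo1-Cko sham, against 39.9 and 50.9 FPKM in wild-type sham libraries (-0.79, SE 0.390; limma, adjusted p = 0.715). The libraries did not overlap within either surgery. Averaged over surgeries, a comparison added after the values had been seen, the difference was -0.94 (SE 0.276, 1.92-fold lower in Piezo1-Cko; limma, adjusted p = 0.289), and across surgeries the Piezo1-Cko sham replicate 1 lay above the wild-type TAC replicate 1. In that average 0.00718% of all tested genes passed, 11.4% had an unadjusted p under 0.05, and 4.08% did not overlap over all 4 libraries of each genotype; none of the 10 feedback genes passed or was free of overlap. Over the alternatives the averaged Dusp1 difference lay between -1.20 and -0.71.

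Dusp1 is also known as a gene induced by glucocorticoids, and a list of 8 other glucocorticoid-responsive genes was followed in the same average. Of these, 7 had a lower mean in Piezo1-Cko and 6 an unadjusted p under 0.05, with a median log2 difference of -0.74, and none passed the adjusted test. Tsc22d3, a glucocorticoid-induced leucine zipper protein, had 14.6 and 17.6 FPKM in Piezo1-Cko TAC, 18.4 and 17.4 FPKM in Piezo1-Cko sham, 23.8 and 18.1 FPKM in wild-type TAC and 48.8 and 41.7 FPKM in wild-type sham libraries. Per1, a clock gene that glucocorticoids also induce, had 2.78 and 3.98 FPKM in Piezo1-Cko TAC, 2.74 and 4.85 FPKM in Piezo1-Cko sham, 5.68 and 5.56 FPKM in wild-type TAC and 12.8 and 19.5 FPKM in wild-type sham libraries. Both genes stood apart most in the wild-type sham libraries, while Dusp1 was lowest in Piezo1-Cko TAC. The metallothionein gene Mt2 had higher values in Piezo1-Cko under TAC, 9.04 and 6.69 FPKM in Piezo1-Cko TAC and 0.823 and 4.91 FPKM in wild-type TAC libraries. These genes were singled out after their values were seen. The time of day of collection is not in the labels, and the 13 clock genes varied within groups: the output gene Dbp had 1.94 and 51.1 FPKM in the 2 Piezo1-Cko sham libraries and 3.22 and 28.8 FPKM in the 2 wild-type sham libraries. Clock genes also differed between genotypes under TAC, where Dbp had 35.5 and 49.9 FPKM in Piezo1-Cko and 2.37 and 23.0 FPKM in wild-type libraries. Of the 13 clock genes, 9 had a higher mean log2 level in Piezo1-Cko under TAC (median log2 difference 0.62). Under sham surgery 3 did (median -0.17), and none passed under either surgery. The part of collection time and of stress hormones in the Dusp1 values was not tested.

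**Figure D3:**
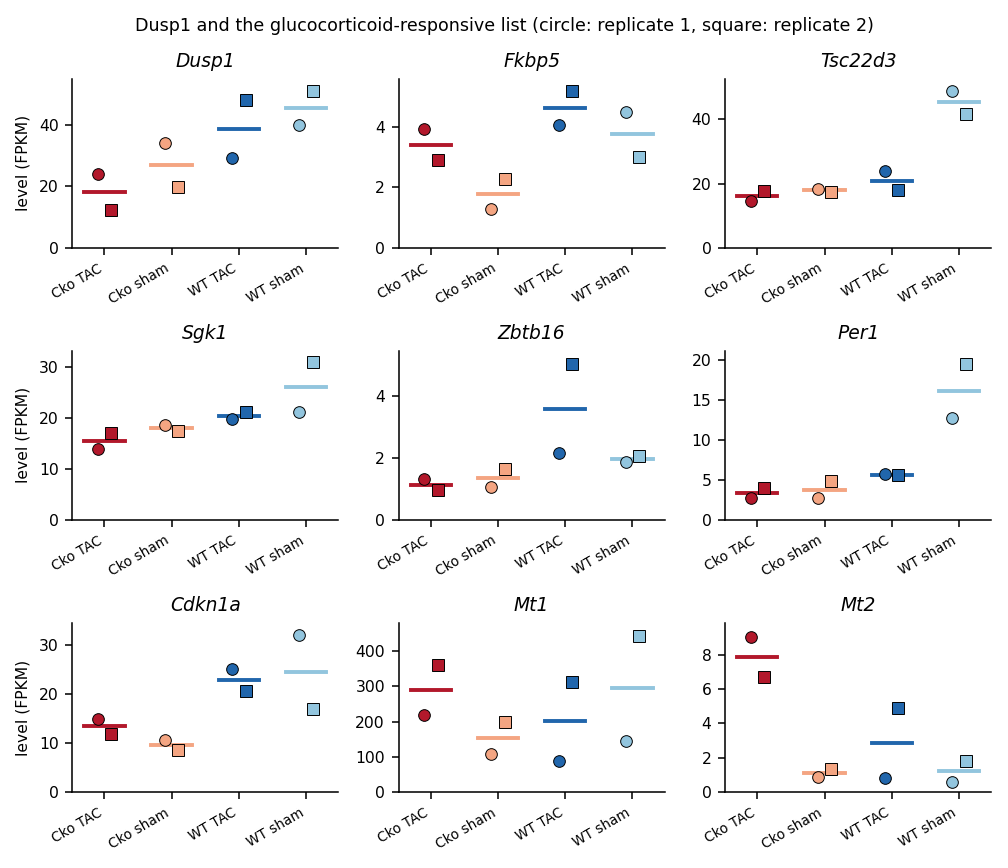
Levels in FPKM (vertical axes, from 0) of Dusp1 and of 8 glucocorticoid-responsive genes in the 8 libraries by group, with group means as lines. Tsc22d3 and Per1 are highest in both wild-type sham libraries (41.7 FPKM and more for Tsc22d3), and Dusp1 is lower in both Piezo1-Cko libraries than in both wild-type libraries under each surgery.

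Spred2 and Spry2 had their largest genotype difference under sham surgery. Spred2 had 9.62 and 9.86 FPKM in Piezo1-Cko sham and 5.79 and 6.27 FPKM in wild-type sham libraries (log2 difference 0.65, SE 0.172; limma, adjusted p = 0.442). Spry2 had 7.88 and 9.42 FPKM in Piezo1-Cko sham and 6.91 and 6.04 FPKM in wild-type sham libraries (0.39, SE 0.183; limma, adjusted p = 0.693). Neither gene overlapped between these groups. Endothelial markers had higher values in the same libraries: the 5 markers summed to 314 and 322 FPKM in Piezo1-Cko sham and 160 and 229 FPKM in wild-type sham libraries, and Kdr, the main VEGF receptor of endothelium, had 59.98 and 48.8 FPKM in Piezo1-Cko sham and 29.0 and 27.8 FPKM in wild-type sham libraries. Of the 5 endothelial markers, 5 were higher in Piezo1-Cko sham and 4 had an unadjusted p under 0.05, and none passed the adjusted test. Under TAC the 5 markers summed to 276 and 348 FPKM in Piezo1-Cko and 206 and 342 FPKM in wild-type libraries, and Spred2 differed by -0.03 and Spry2 by -0.06 on the log2 scale. The part of endothelial cells in these values was not tested. In the average over surgeries the log2 difference was 0.31 for Spred2 (SE 0.121; limma, adjusted p = 0.386) and 0.16 for Spry2 (SE 0.129; limma, adjusted p = 0.676).

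No other genotype difference of the 10 genes passed. Under TAC the log2 difference was -0.38 for Spry1, -0.22 for Dusp6, -0.07 for Spred1, -0.02 for Dusp5 and 0.56 for Dusp2 (limma, adjusted p of 0.616 to 0.983), each with overlapping libraries. Under sham surgery it was -0.38 for Dusp5, -0.10 for Dusp6, 0.04 for Dusp2 and 0.20 for Spry4, with overlap, and -0.24 for Spry1 and 0.32 for Spred1 without it (limma, adjusted p of 0.751 to 0.993 for these 6 genes). Spry1 had 12.4 and 13.5 FPKM in Piezo1-Cko sham and 16.9 and 13.8 FPKM in wild-type sham libraries, and Spred1 had 7.77 and 6.59 FPKM in Piezo1-Cko sham and 6.31 and 5.03 FPKM in wild-type sham libraries. Averaged over surgeries, the log2 difference was -0.31 for Spry1 (SE 0.145), -0.29 for Spry4 (SE 0.167), -0.26 for Dusp4 (SE 0.215), -0.20 for Dusp5 (SE 0.187), -0.16 for Dusp6 (SE 0.186), 0.12 for Spred1 (SE 0.121) and 0.30 for Dusp2 (SE 0.254), with limma adjusted p of 0.478 to 0.794. The 95% intervals of these 7 differences reached from -0.76 for Dusp4 to 0.89 for Dusp2, so differences of that size lie inside the intervals of these data. Without both libraries that stand apart, the Spry1 difference was -0.09 under TAC, -0.09 under sham surgery and -0.09 averaged over surgeries. Dusp2, known for its expression in activated T and B cells, was measured in libraries with little T cell transcript. The 5 T and NK cell markers summed to 0.567 to 3.09 FPKM in the 8 libraries. Dusp2 and this sum were both highest in the Piezo1-Cko TAC replicate 1. In the wild-type sham replicate 1, Dusp2 had 0.632 FPKM and the sum was 0.989 FPKM. The 5 B and plasma cell markers summed highest in the wild-type TAC replicate 1, at 24.6 FPKM, where Dusp2 had 0.429 FPKM. The part of these cells in the Dusp2 values was not tested.

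The rest of the ERK pathway was followed through 6 lists of 86 genes, of which 80 could be tested. In wild type 5 rose and 1 fell after TAC, 7.5% of the 80, where 13.2% of all tested genes passed. The 3 rises with the smallest p were those of Shc1, an adaptor that links receptors to RAS (0.71, SE 0.112; limma, adjusted p = 0.0171), Etv4, an ETS factor downstream of ERK (1.46, SE 0.272; limma, adjusted p = 0.0233), and Egr3, an early growth response factor (1.21, SE 0.281; limma, adjusted p = 0.0351). The gene that fell was Fgf16, a growth factor of heart muscle (-0.87, SE 0.172; limma, adjusted p = 0.0253). In Piezo1-Cko none of the 80 passed. Averaged over genotypes 16 rose and 5 fell, 26.2% of the 80, beside 25.4% of all tested genes. Shc1 (0.60), Etv4 (1.23) and Myc (1.13) were the rises with the smallest p in that average, and Fgf16 (-0.69), Rps6ka5 (-0.51) and Vegfa (-0.50) the falls. In the genotype comparisons and the interaction none of the 80 passed.

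By role, the early genes had the largest median of the 6 lists in both genotypes. The 18 core genes from adaptor to kinase had a median log2 difference of 0.13 in wild type, and the 15 ERK-induced transcription factors and early genes had 0.57, with 14 of 15 higher and 2 passing. In Piezo1-Cko the medians were 0.00 and 0.46, again with 14 of 15 early genes higher and none passing. The ERK kinase gene Mapk3 had 49.5 and 60.8 FPKM in Piezo1-Cko TAC, 48.7 and 51.0 FPKM in Piezo1-Cko sham, 39.4 and 41.6 FPKM in wild-type TAC and 37.2 and 39.5 FPKM in wild-type sham libraries. Each Piezo1-Cko library lay above each wild-type library in Mapk3, which did not pass the adjusted test and was named after its values were seen. Transcripts of other feedback genes had medians of 0.27 in wild type and 0.04 in Piezo1-Cko over 11 genes, with no call in either genotype. Of the 4 other MAP kinase phosphatases tested none passed, and Dusp9 and Spry3 were at most 0.0213 and 0.0648 FPKM.

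**Figure D4:**
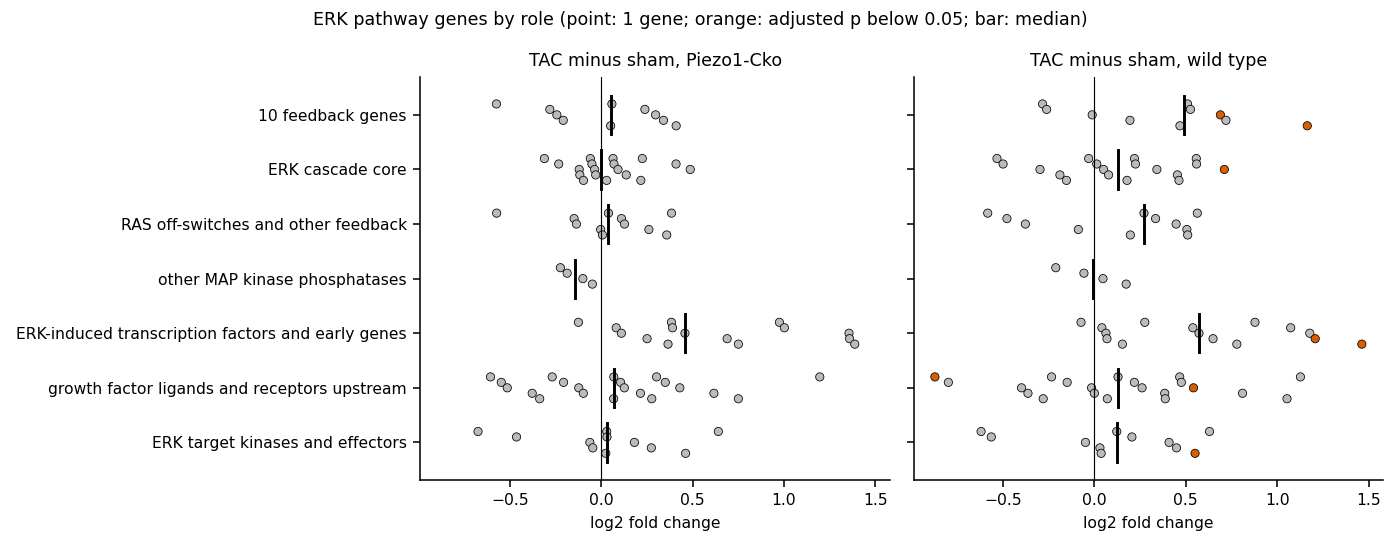
Fitted log2 differences, TAC minus sham (horizontal axis), of the 10 feedback genes and of 6 lists of other ERK pathway genes in Piezo1-Cko (left) and wild type (right). Each point is a gene, orange points passed an adjusted p of 0.05, and bars are medians, which for the feedback genes are 0.06 in Piezo1-Cko and 0.49 in wild type.

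Some early genes varied strongly between the 2 TAC libraries of a group. Of the 15, 12 were higher in the Piezo1-Cko TAC replicate 1 than in its replicate 2. In the wild-type TAC replicate 2, 8 were higher than in its replicate 1, and 7 showed both. The others, Egr2, Etv1, Etv4, Etv5, Fosl2, Ier3 and Myc, were higher in the wild-type TAC replicate 1. Fos, a transcription factor induced within minutes by ERK, had 10.4 and 0.689 FPKM in Piezo1-Cko TAC and 12.0 FPKM in the wild-type TAC replicate 2, against 2.61 FPKM in the wild-type TAC replicate 1. Egr1, another early gene, had 16.4 and 3.46 FPKM in Piezo1-Cko TAC and 9.17 and 19.8 FPKM in wild-type TAC libraries. In sham libraries Fos had 1.86 and 0.333 FPKM in Piezo1-Cko and 3.53 and 3.87 FPKM in wild type. Dusp6 was highest in the Piezo1-Cko TAC replicate 1 (15.4 FPKM) and the wild-type TAC replicate 2 (14.4 FPKM), the same libraries in which Fos and Egr1 were highest. Fos and Egr1 were singled out after their values were seen, and neither passed in any comparison. The neutrophil markers were also high in the Piezo1-Cko TAC replicate 1, at 49.1 FPKM in sum against 3.49 FPKM in its replicate 2. In wild-type sham libraries the neutrophil sum was 47.95 and 7.004 FPKM, where Fos had 3.53 and 3.87 FPKM. In wild-type TAC libraries it was 38.87 and 23.43 FPKM, where Fos had 2.61 and 12.0 FPKM. The part of neutrophils in the early gene values was not tested.

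**Figure D5:**
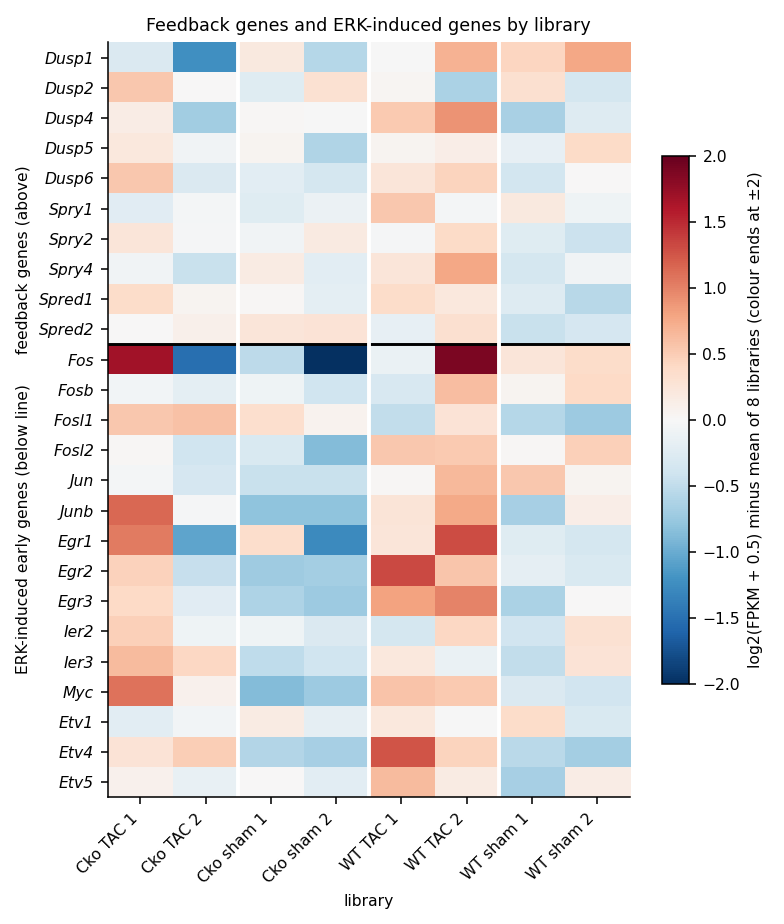
Level of each of the 10 feedback genes (above the line) and of 15 ERK-induced early genes (below it) in each library, as log2(FPKM + 0.5) minus the mean of the gene over the 8 libraries (colour, from -2 to 2). The Piezo1-Cko TAC replicate 1 and the wild-type TAC replicate 2 are red for Fos, Egr1 and Dusp6, and the Piezo1-Cko TAC replicate 2 is blue for Fos, Egr1 and Dusp1.

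Other genes with the most similar pattern over the 8 libraries differed from member to member. Likeness was the Pearson r of log2(FPKM + 0.5) among tested protein-coding genes with a mean of at least 1 FPKM, given as a description because the libraries share groups, scaling and cell makeup. Spry1 was closest to Antxr1 (r = 0.99) and Itih5 (r = 0.98). Spry2 was closest to Ptprg (r = 0.97), with Flt4, the VEGF-C receptor of lymphatic endothelium, also among its 3 nearest (r = 0.96). Spred2 was closest to Cyyr1 (r = 0.97). Spred1 was closest to P2ry13 (r = 0.98) and Sox4 (r = 0.98), Dusp4 to Spen (r = 0.98), Dusp6 to Rrp8 (r = 0.98), and Dusp1 to Klhl9 (r = 0.96). Dusp5 was closest to Synj1 (r = 0.95), and Spry4 and Dusp2 had the loosest best matches, Zfp770 (r = 0.94) and Smyd4 (r = 0.94). With the library of highest level left out, these best matches kept an r of 0.91 or more. No pair of the 10 genes shared a neighbour among the 3 nearest.

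The genomic position and overlap of the genes bear on how far their counts can be read. In the build GRCm38, Dusp4 lies at chr8:34807297-34819894 and Spred1 at chr2:117121374-117182279, both on the plus strand and free of exonic overlap with another annotated gene. Dusp5, at chr19:53529109-53542431, shares 547 exonic bases with an antisense gene, and Spry1, at chr3:37639947-37644598, shares 710 with Gm42922, which was itself at 0 to 0.109 FPKM. Whether reads were counted by strand is not given in the sources used here, so reads from Dusp5 and its antisense partner cannot be told apart. The other 6 genes had no exonic overlap.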

How the data were processed

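Total RNA of hearts, isolated with Trizol, went into NEBNext Ultra RNA libraries, per the labels. The submitters' processing notes name the builds mm10 and mm8 and the tools featureCounts 1.5.0-p3, Bowtie 0.12.2 and CASAVA 1.8, without saying which did what. The authors deposited 1 table of FPKM for 54532 genes and 8 libraries, although it is named as counts. Multiplied by gene length, the values of a library fell on multiples of a single step (100% of values above 0, within 0.01 of a read), which gave the reads, 15574769 to 17313084 a library; no count test was run on them as the main test. The steps imply library sizes of 0.886 to 1.10 times those totals, so the deposited values rest on a scaled library size. Coordinates equalled those of GENCODE release 21 for 53499 of 54409 shared gene IDs; Dusp1 and Spry4 were not among these.

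limma 3.58.1 in R 4.3.3 was fitted to log2(FPKM + 0.5) of the 13928 genes with at least 0.5 FPKM and 10 reads in at least 2 libraries, with 1 term per group, all 8 libraries, an intensity trend and robust moderation (4 residual degrees of freedom, median prior 3.54). Adjusted p-values are Benjamini-Hochberg over all tested genes, two-sided, with a threshold of 0.05. Groups follow the genotype and treatment labels. Intervals on levels are exact Poisson at 95% and cover counting error only. The fit was also run on simulated reads with known changes in wild-type TAC. These reads had the same dispersion for all genes and no library that stands apart. That run therefore does not check how the fit behaves with such libraries. The libraries of a group differed by more than counting noise (chi-square per degree of freedom 17.3 to 44.2).

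All 10 genes are named in each comparison; of other pathway genes, up to 3 with the smallest p in each direction among those that passed are named, and the text says where a gene was named after its values were seen. Neighbours are the 3 genes with the highest r. Members, lists and motifs were chosen with earlier results of these data known. Promoters are RefSeq's (GRCm38.p6). Alternatives were other pseudocounts, filters, scalings, limma-voom on the reads, plain moderation, protein-coding genes alone, the 4 libraries compared, the replicate block, each library left out and, added after seeing the data, both libraries that stand apart left out.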

Additional observations from a re-analysis of the deposited data

Results flagged for a closer look

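Dusp4 had opposite genotype differences under the 2 surgeries. Both Piezo1-Cko libraries lay below both wild-type libraries under TAC (0.772 and 0.211 FPKM against 1.16 and 1.63 FPKM) and above them under sham surgery (0.667 and 0.644 FPKM against 0.231 and 0.463 FPKM). The genotypes did not overlap, in either direction, for 39.8% of all tested genes under TAC and 39.6% under sham surgery. The share of all genes with opposite directions was not counted. The interaction was -1.44 on the log2 scale (SE 0.430; limma, adjusted p = 0.911).

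Spred2 had opposite TAC differences in the 2 genotypes. Both TAC libraries lay below both sham libraries in Piezo1-Cko (8.07 and 8.68 FPKM against 9.62 and 9.86 FPKM) and above them in wild type (7.10 and 10.2 FPKM against 5.79 and 6.27 FPKM). TAC and sham libraries did not overlap, in either direction, for 56.4% of all tested genes in Piezo1-Cko and 62.2% in wild type. Here too the share with opposite directions was not counted. The interaction was -0.68 on the log2 scale (SE 0.243; limma, adjusted p = 0.911).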

How the results depend on the processing

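Over 20 alternatives the log2 differences of the 10 genes gave 1354 values. Of these, 1313 stayed on the same side of the threshold, 29 lost and 12 gained a call, and none reversed with a call. Among the 1313, 45 changed sign where neither fit passed. The cause was not tested.

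For TAC against sham in wild type, the number of feedback genes called, 2 in the report, was 1 with a pseudocount of 0.1 FPKM, with at least 1 FPKM in at least 4 libraries, with limma-voom, with plain moderation and with the replicate block, was 0 with no filter and with only the 4 libraries compared, and was 5 with either scaling to total reads. Scaling to total reads put the median log2 difference of all genes at 0.206 in wild type, 0.178 in Piezo1-Cko and 0.194 averaged; the 3 added genes were Spry2 (0.73), Spry4 (0.93) and Spred2 (0.68), against 0.51, 0.72 and 0.47 in the report. The genes called over the transcriptome were 247 with no filter and 365 with only the 4 libraries. With 1 library left out the feedback genes called ranged from 0 to 2 and the genes called from 74 to 2120. Without both libraries that stand apart they were 0 and 1.

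In Piezo1-Cko the 208 genes called became 0 with no filter, 515 and 414 with the scalings to total reads (all, and without mitochondrial genes), 390 with limma-voom, 379 with protein-coding genes alone, 466 with only the 4 libraries, 423 without both libraries that stand apart, and 0 to 387 with 1 library left out. No feedback gene passed in any of these.

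Averaged over genotypes, no filter gave 1927 genes and 0 feedback genes, the scalings to total reads gave 3 feedback genes, leaving out both libraries that stand apart gave 1851 and 0, and leaving out 1 library gave 1332 to 3669 genes and 0 to 3 feedback genes.

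Between genotypes under sham surgery, no filter gave 1 gene and leaving out 1 library 1 to 4 genes. Under TAC, 1 gene passed with the stricter filter, with only the 4 libraries and without both libraries that stand apart, and 0 to 21 with 1 library left out. Averaged over surgeries the count was 0 with no filter, 2 with the scalings to total reads, limma-voom, protein-coding genes alone and without both libraries that stand apart, and 0 to 3 with 1 library left out. The interaction gave 2 genes with no filter and with the stricter filter, and 1 to 3 with 1 library left out.

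The replicate numbers of the titles do not pair libraries strongly over all tested genes. Deviations of libraries with the same number correlated at 0.0256 to 0.248 over the pairs of groups. Dbp, named after its values were seen, was lower in replicate 1 than in replicate 2 of each group. It had 35.5 and 49.9 FPKM in Piezo1-Cko TAC and 1.94 and 51.1 FPKM in Piezo1-Cko sham libraries. In wild type it had 2.37 and 23.0 FPKM in TAC and 3.22 and 28.8 FPKM in sham libraries. Whether the numbers mark a shared batch or collection time was not tested. With the number as a block, 2187 genes passed in wild type, and of the feedback genes Spred1 passed (adjusted p = 0.0183) and Dusp4 did not (0.0536). Searching 150 bases before the start in place of the whole promoter window left a CRE half-site in 3 promoters and an ETS core in 0. With 2 libraries a group and 3 to 30 reads for Dusp2, changes of the size of its intervals were not detectable at this depth.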
